A study of Homo sapiens with 4 samples.

Results

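The 42 genes described here form the core of the cell cycle engine and its close relatives: 16 cyclins, 11 cyclin-dependent kinases (CDKs), 5 CDK inhibitors, 3 proteins of the retinoblastoma (RB) family and 7 E2F transcription factors. They were chosen by name out of 24759 gene symbols, and all their RefSeq transcripts were taken. These are 79 transcripts, which fill 80 of the 53209 transcript entries listed for each library. RNA came from DU-145, an established human line grown from a metastasis of a carcinoma of the prostate. The cells received 60 nM of miR-28-5p duplex by transfection, were irradiated with UV at 365 nm after 24 h, and their total RNA was passed over streptavidin beads that hold biotin. In the miR-28CT arm the duplex carried no tag, so that the RNA left on the beads was background. In the miR-28BIO arm the duplex was a mix of 2 forms, each with biotin at its 3′ end and a thiouridine at nucleotide 8 or 18, which UV links to RNA lying close by. Both arms therefore received the microRNA, and cells without it were not part of the comparison. Each arm had 2 libraries, from biological replicates of 1 cell line.

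Levels are given as scaled FPKM (fragments per kilobase of transcript, relative to the mapped reads and brought to a common scale across libraries), summed over the transcripts of a gene. As FPKM is per length, levels of different genes can be set side by side. A level is a share of the RNA recovered from the beads. More cells in one state and more RNA per cell cannot be told apart in such bulk samples. The FPKM and coverage columns gave about 17900000 and 13000000 reads behind the miR-28CT values and 17300000 and 14700000 behind the miR-28BIO values. Since the reads behind a single gene are unknown, its counting error could not be calculated. The epithelial markers KRT7, KRT8, KRT18, KRT19, EPCAM and CDH1 were above 0 in all 4 libraries, whereas KLK3, KLK2 and TMPRSS2, which mark androgen-driven prostate cells, were listed at 0 in all 4. Of 4 fibroblast, 3 endothelial, 3 leukocyte and 2 red cell markers, only CD68 (3.16 to 9.51), COL1A1 and VWF were above 0 in any library, the last pair at 0.21 at most.

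A cyclin binds its CDK and switches it on, and the pairs act in turn: cyclin D with CDK4 or CDK6 and cyclin E with CDK2 at the start of DNA replication, cyclin A during it, and cyclin B with CDK1 at mitosis. The inhibitors of the CDKN1 and CDKN2 families hold these kinases back. RB and its relatives bind E2F factors and silence their target genes until CDKs phosphorylate them, and the E2F family in turn holds activators (E2F1 to E2F3) and repressors (E2F4, E2F5, E2F7, E2F8). A further set of pairs, such as cyclin T with CDK9, cyclin H with CDK7 and cyclin K with CDK12 or CDK13, works on RNA polymerase II. A microRNA guides Argonaute proteins to partly complementary mRNAs.

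RNA of 41 of the 42 genes was found on the beads above the filter, a mean scaled FPKM of at least 0.5. None of the 41 passed limma's test between the arms after Benjamini-Hochberg adjustment over 11309 genes. The background of this test was 0.0% of all genes called higher and 0.0265% called lower in miR-28BIO (3 small nucleolar RNA genes, SNORD12C, SNORD57 and SNORD58A). At an unadjusted p under 0.05, limma gave 1 of the 41 genes, E2F8, which is 2.44% of them, against 3.02% of all genes (2.22% with a higher and 0.805% with a lower level in miR-28BIO). In 3 genes, CCNK, E2F7 and E2F8, both miR-28BIO values lay above both miR-28CT values, 7.32% of the 41 beside 12.3% of all genes. In 5 genes, CCNB1, CCNB2, CDK1, CDK2 and CDKN1B, both lay below, 12.2% beside 12.7% of all genes. Neither share exceeded that of all genes. When the arms had to be apart by at least 2-fold, E2F8 was left above (background 2.18%) and no gene below (background 0.946%). With 2 libraries per arm, the exact permutation test of a single gene cannot give a two-sided p below 0.333. Leaving out a library makes separation easier by construction. Above and below counts were then 14 and 14 without miR-28CT replicate 1, 10 and 16 without miR-28CT replicate 2, 8 and 13 without miR-28BIO replicate 1, and 11 and 12 without miR-28BIO replicate 2. In the same order, the shares of the 41 genes were 34.1% and 34.1%, 24.4% and 39.0%, 19.5% and 31.7%, and 26.8% and 29.3%. Those of all genes were 32.1% and 38.8%, 26.7% and 31.3%, 24.9% and 28.6%, and 30.003% and 35.2%.

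The median log2 fold change (miR-28BIO over miR-28CT) of the 41 genes was -0.15, beside -0.08 for all genes, and 56.1% of them lay below 0, beside 55.9% of all genes. The single values ran from -1.05 for CDK4 to 1.46 for E2F8. The sign of the median depended on the scaling: with FPKM as deposited, the median of all genes moved up by 0.16 to 0.08 and that of the 41 genes was 0.02. Without miR-28CT replicate 1 the median of the 41 genes was 0.14.

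**Figure D1:**
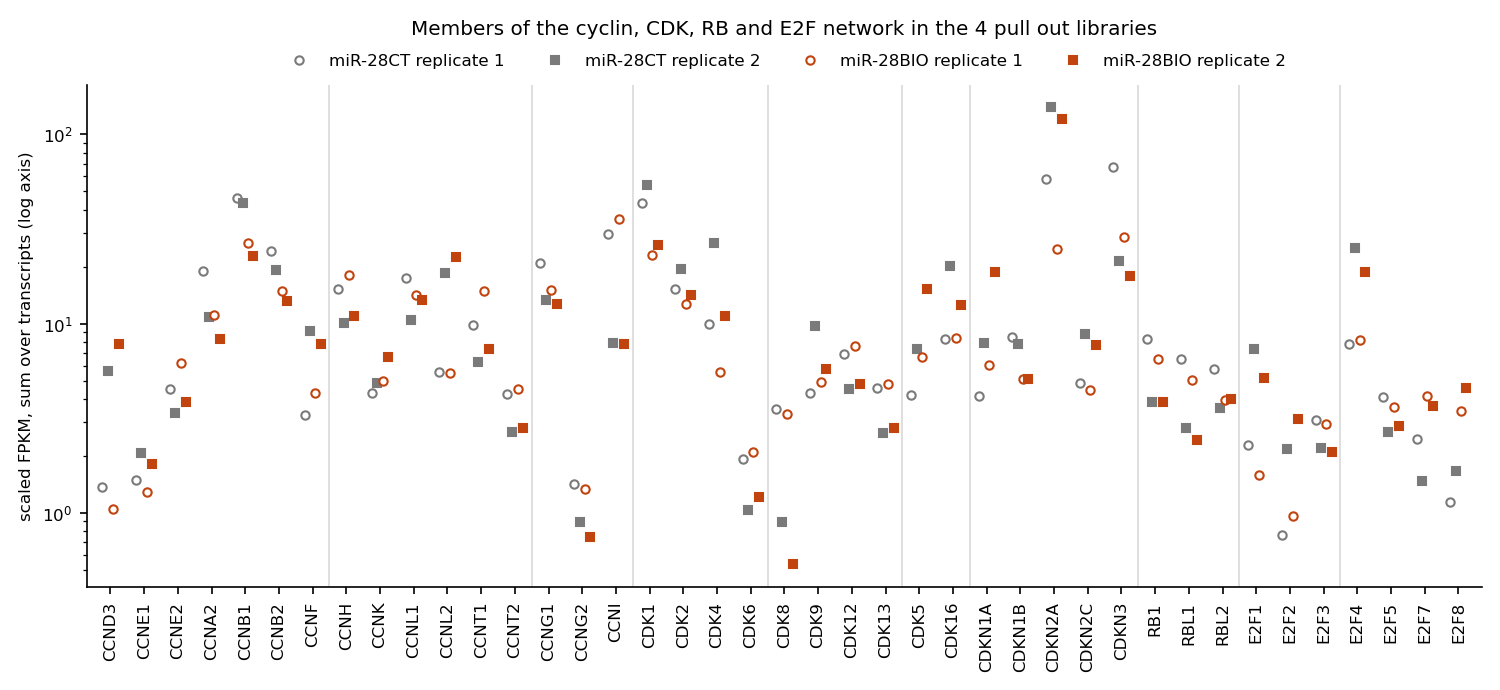
Scaled FPKM summed over transcripts (log axis) of the 41 genes above the filter in the 4 libraries, with grey marks for miR-28CT, orange marks for miR-28BIO, open circles for replicate 1 and filled squares for replicate 2. Vertical lines part the genes by role. CDKN2A is highest and CCNG2 lowest by the mean of 4 libraries, and the vertical distance between circles and squares of one colour is often larger than that between colours.

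Levels spanned a wide range. CDKN2A had the highest mean over the 4 libraries, 85.6, followed by CDK1 with 36.6, CCNB1 with 34.7 and CDKN3 with 33.8. The lowest means were those of CCNG2, 1.10, CDK6, 1.56, CCNE1, 1.67, and E2F2, 1.76. Spread between replicates was large against these distances, so that the order is not settled. The mean of CDKN2A was carried by both replicates 2 (138.8 and 121.0), while CDKN3 was higher in miR-28CT replicate 1 (67.3 against 58.2), and CCNI (35.7), CDKN3 (28.5) and CCNB1 (26.5) were higher than CDKN2A (24.6) in miR-28BIO replicate 1.

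Both members of the mitotic pair, CCNB1 and CDK1, were on the lower side. CCNB1 (cyclin B1, on chromosome 5 from 69167150 to 69178245) had 46.3 and 43.3 in miR-28CT and 26.5 and 22.8 in miR-28BIO. CDK1, its kinase (chromosome 10, 60778331 to 60794852), had 43.2 and 54.2 in miR-28CT and 23.1 and 25.9 in miR-28BIO. In both genes the arms did not overlap, and the replicates of an arm lay close together. The means of CCNB1 were 44.8 ± 2.07 and 24.7 ± 2.67 (SD, n = 2 libraries each), a log2 fold change of -0.86 with a standard error of 0.46. For CDK1 they were 48.7 ± 7.80 and 24.5 ± 1.93, with -0.98 and a standard error of 0.47. In limma neither difference passed, with unadjusted p = 0.132 and 0.104 and adjusted p = 1.00 for both. Some markers lay on the same side and others did not. Of the 6 epithelial markers, KRT8 (log2 fold change -0.93) and EPCAM (-0.41) had both miR-28BIO values below both miR-28CT values. KRT18 (-1.07) and KRT19 (-0.79) were lower with overlapping arms, and KRT7 (0.43) and CDH1 (0.17) were higher with overlapping arms. The summed level of the 6 overlapped between the arms, with 146.0 and 329.3 in miR-28CT and 128.5 and 240.3 in miR-28BIO. CD68 (-0.80), the only leukocyte marker above 0, with PTPRC and CD3E at 0, also had both miR-28BIO values below. None of these passed limma's adjusted test, and their part in the values of the mitotic genes was not tested.

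CCNB2 (cyclin B2, chromosome 15, 59105146 to 59125045) showed the same order at a lower level, with 24.1 and 19.2 in miR-28CT and 14.8 and 13.1 in miR-28BIO. Its log2 fold change was -0.62 with a standard error of 0.44. CCNA2 (cyclin A2) had 19.0 and 10.8 against 11.1 and 8.26, and its arms overlapped. CCNF, the F-box cyclin of a ubiquitin ligase, had 3.28 and 9.12 in miR-28CT and 4.31 and 7.79 in miR-28BIO, with both replicates 2 above both replicates 1. Among the cyclins of the G1/S step, CCND3 ranged from 1.05 to 7.82, CCNE1 from 1.29 to 2.07 and CCNE2 from 3.36 to 6.21, each with overlapping arms. The 7 cyclins of the cell cycle had a median log2 fold change of -0.19 (-0.08 over all genes), with 0 genes above and 2 below (28.6% of 7, beside 12.7% of all genes).

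Among the kinases of the cell cycle, CDK2 (chromosome 12, 55966830 to 55972789) also had both miR-28BIO values, 12.7 and 14.1, below both miR-28CT values, 15.2 and 19.5. The gap was narrow, and the log2 fold change of -0.36 was smaller than its standard error of 0.43; it was -0.18 without miR-28CT replicate 2 and -0.54 without miR-28CT replicate 1. CDK4, the partner of cyclin D (chromosome 12, 57747727 to 57752310), had the lowest fold change of all 41 genes, -1.05 with a standard error of 0.72. Its values were 9.89 and 26.6 in miR-28CT and 5.54 and 10.9 in miR-28BIO, and the arms overlapped, since the higher miR-28BIO library exceeded the lower miR-28CT library. The value moved with the library left out: it was -1.76 without miR-28CT replicate 1, -0.34 without miR-28CT replicate 2, -0.57 without miR-28BIO replicate 1 and -1.54 without miR-28BIO replicate 2. Between libraries of the same number, which the labels do not pair, the log2 difference of CDK4 was -0.83 for replicate 1 and -1.28 for replicate 2. CDK6, the other partner of cyclin D, was low in both arms, with means of 1.48 ± 0.632 and 1.65 ± 0.628 (SD, n = 2) and 0.16 as the log2 fold change. The 4 kinases had a median log2 fold change of -0.67, beside -0.08 over all genes. The arms lay apart above in 0 of them and below in 2 (50% of 4, beside 12.7% of all genes).

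Of the inhibitors, CDKN1B, which binds cyclin E with CDK2 (chromosome 12, 12717368 to 12722369), had 8.51 and 7.83 in miR-28CT and 5.08 in both miR-28BIO libraries. The arms did not overlap, with means of 8.17 ± 0.484 and 5.08 ± 0.0022 (SD, n = 2) and a log2 fold change of -0.67 with a standard error of 0.39. In limma its unadjusted p was 0.154 and its adjusted p 1.00. CDKN1A, the inhibitor that p53 switches on, lay on the other side: 4.13 and 7.90 in miR-28CT and 6.03 and 18.8 in miR-28BIO, a log2 fold change of 0.89 with a standard error of 0.76 and overlapping arms. CDKN2A, whose locus codes for INK4a and ARF, had 58.2 and 138.8 in miR-28CT and 24.6 and 121.0 in miR-28BIO, so that its replicates differed more than its arms. CDKN3, a phosphatase that acts on CDKs, had 67.3 and 21.4 against 28.5 and 17.8, and CDKN2C, which binds CDK4 and CDK6, lay between 4.46 and 8.77. Both overlapped between the arms.

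**Figure D2:**
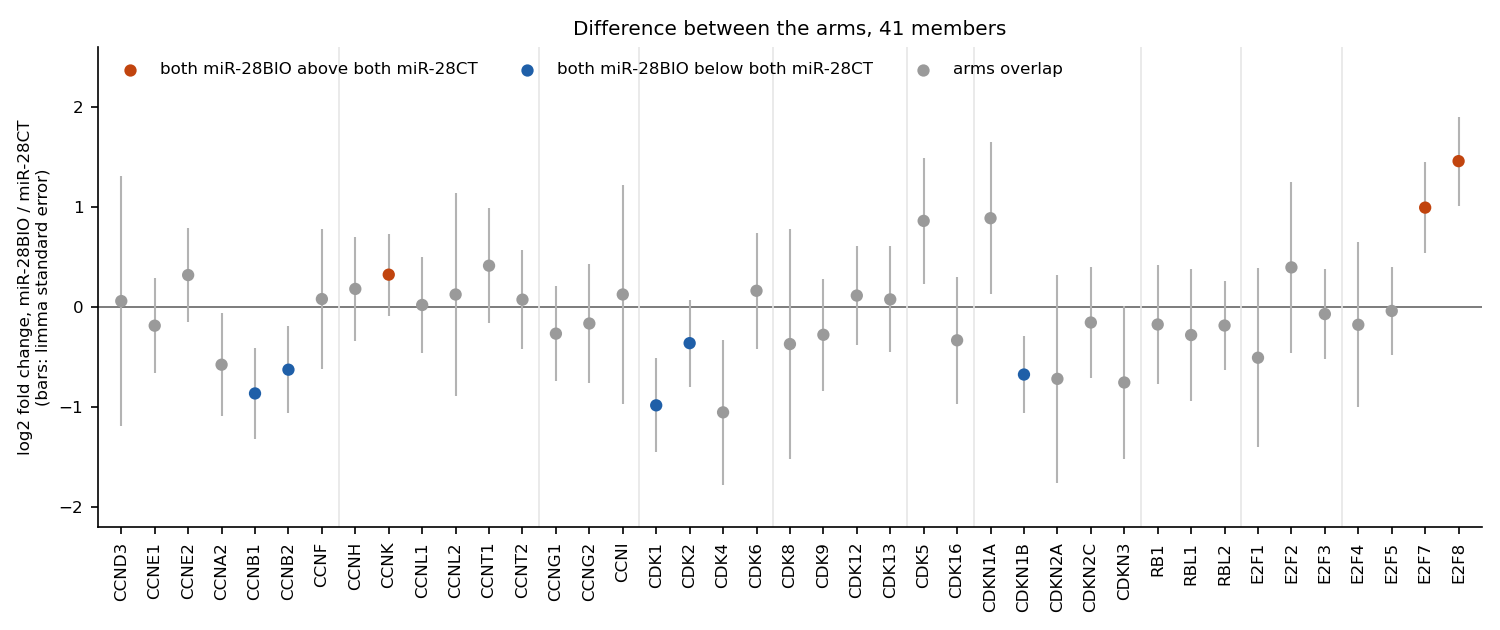
Log2 fold change of miR-28BIO over miR-28CT for the 41 genes in the order of their roles, with bars of 1 limma standard error. Orange points (CCNK, E2F7, E2F8) have both miR-28BIO values above both miR-28CT values, blue points (CCNB1, CCNB2, CDK1, CDK2, CDKN1B) have both below, and grey points overlap; no gene passed the adjusted test.

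The pair of atypical E2F repressors lay on the upper side. E2F7 and E2F8 bind DNA without the DP partner that other E2F factors need, and they dampen E2F target genes late in S phase and in G2. E2F8 (chromosome 11, 19224063 to 19241655) had 1.14 and 1.66 in miR-28CT and 3.46 and 4.54 in miR-28BIO. E2F7 (chromosome 12, 77021251 to 77065569) had 2.45 and 1.48 in miR-28CT and 4.13 and 3.68 in miR-28BIO. Both miR-28BIO libraries exceeded both miR-28CT libraries in each gene. E2F8 thus had means of 1.40 ± 0.367 and 4.00 ± 0.761 (SD, n = 2), a 2.75-fold difference on the log scale (log2 fold change 1.46, standard error 0.44). In limma its unadjusted p was 0.0296 and its adjusted p 1.00. For E2F7 the means were 1.97 ± 0.690 and 3.91 ± 0.318, with a log2 fold change of 0.99, a standard error of 0.45 and, in limma, unadjusted p = 0.0922 and adjusted p = 1.00. The log2 fold change of E2F7 was 0.65 without miR-28CT replicate 2 and 1.34 without miR-28CT replicate 1. Their ranks among all genes were high but not extreme, since 96.2% of the 11309 genes had a lower log2 fold change than E2F8 and 93.4% a lower one than E2F7. When E2F8 was measured by its highest transcript alone, NM_024680, its log2 fold change was 2.94 (standard error 1.46 in the fit over transcripts), a value that rests on the pseudocount, since this transcript is listed at 0 in miR-28CT replicate 1. The other transcript, NM_001256372, of nearly the same mean level, had 0.76 with a standard error of 0.73.

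In E2F4 and E2F5, the other repressors among the 42 genes, the arms overlapped. E2F4, which pairs with RB relatives in resting cells, had the highest mean of the 7 E2F genes among the 42, with 7.78 and 25.2 in miR-28CT and 8.23 and 18.6 in miR-28BIO, and E2F5 stayed between 2.68 and 4.10. In the activating group, E2F1 had 2.28 and 7.36 against 1.59 and 5.13, E2F2 ranged from 0.766 to 3.12, and E2F3 had means of 2.65 ± 0.653 and 2.52 ± 0.587 (SD, n = 2). E2F1, E2F2 and E2F4 had both replicates 2 above both replicates 1. RB1, the retinoblastoma gene, had 8.32 and 3.84 in miR-28CT and 6.48 and 3.86 in miR-28BIO. RBL1 (2.43 to 6.46) and RBL2 (3.58 to 5.75) likewise overlapped, and the log2 fold changes of the 3 pocket proteins lay between -0.28 and -0.17, within 1 standard error of 0.

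The log2 fold changes of the cyclins and kinases of transcription lay within 1 standard error of 0. CCNK (cyclin K, chromosome 14, 99481409 to 99512440) had 4.31 and 4.84 in miR-28CT and 4.94 and 6.69 in miR-28BIO. The arms did not overlap, but by a small gap, and the log2 fold change of 0.32 was smaller than its standard error of 0.41; it was 0.11 without miR-28BIO replicate 2 and 0.54 without miR-28BIO replicate 1. CCNL1, a cyclin found with the splicing machinery, had the highest mean of the group over the 4 libraries, 13.8, with 17.4 and 10.5 against 14.2 and 13.3. That order is not settled, since CCNH was higher in miR-28BIO replicate 1 (18.0) and CCNL2 in both replicates 2 (18.6 and 22.4). CCNL2 had 5.54 and 18.6 against 5.48 and 22.4, nearly equal between the arms and far apart between replicates. CCNT1 lay between 6.25 and 14.9, CCNT2 between 2.67 and 4.50 and CCNH between 10.0 and 18.0, all with overlapping arms. The 6 cyclins of transcription had log2 fold changes from 0.02 to 0.41.

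CDK9, the kinase of the elongation factor P-TEFb, had 4.28 and 9.66 in miR-28CT and 4.91 and 5.73 in miR-28BIO. CDK12 (4.49 to 7.62) and CDK13 (2.64 to 4.78), its relatives that pair with cyclin K, had log2 fold changes of 0.12 and 0.08, beside -0.28 for CDK9. CDK8, the kinase of the Mediator complex, had 3.53 and 0.899 against 3.33 and 0.533, again split by replicate and not by arm, with a log2 fold change of -0.37 and a standard error of 1.15. CDK7, the kinase of TFIIH, was listed at 0 in all 4 libraries and is the member that did not pass the filter. Its transcript is listed on chromosome 5 and also on an alternate contig of that chromosome. Of 1459 coding transcripts listed in both ways, 92.0% were at 0 in all 4 libraries, beside 42.2% of 35990 coding transcripts listed on a primary chromosome alone, so that the 0 of CDK7 gives no information on its RNA. How the alignment treated reads that match both places is not given in the sources used here.

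Of the remaining genes, CCNI, a cyclin with no settled cell cycle role, had 29.5 and 7.87 in miR-28CT and 35.7 and 7.77 in miR-28BIO, a large split between replicates that was the same in both arms. CCNG1, a target of p53, had 20.8 and 13.2 against 15.0 and 12.7, and CCNG2 stayed between 0.741 and 1.42. CDK16, a kinase of the PCTAIRE group, had 8.25 and 20.1 in miR-28CT and 8.35 and 12.5 in miR-28BIO. CDK5, best known from neurons, had 4.18 and 7.29 against 6.68 and 15.3, a log2 fold change of 0.86 with a standard error of 0.63 and overlapping arms.

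Replicates thus differed more than arms in most of these genes. Across the 41 genes, the median absolute difference between replicates, averaged over the arms, was 0.69 on the log2 scale, and that between arms was 0.28. Over all genes the same values were 0.83 and 0.40. The replicate difference was larger than the arm difference in 33 of the 41 genes (80.5%) and in 71.2% of all genes. The 8 exceptions are the 8 genes whose arms did not overlap, which is nearly the same comparison in another form. The widest replicate differences were those of CCND3, CCNI, CDK8, CCNL2 and CDKN2A. The step of the assay at which replicates parted was not tested.

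**Figure D3:**
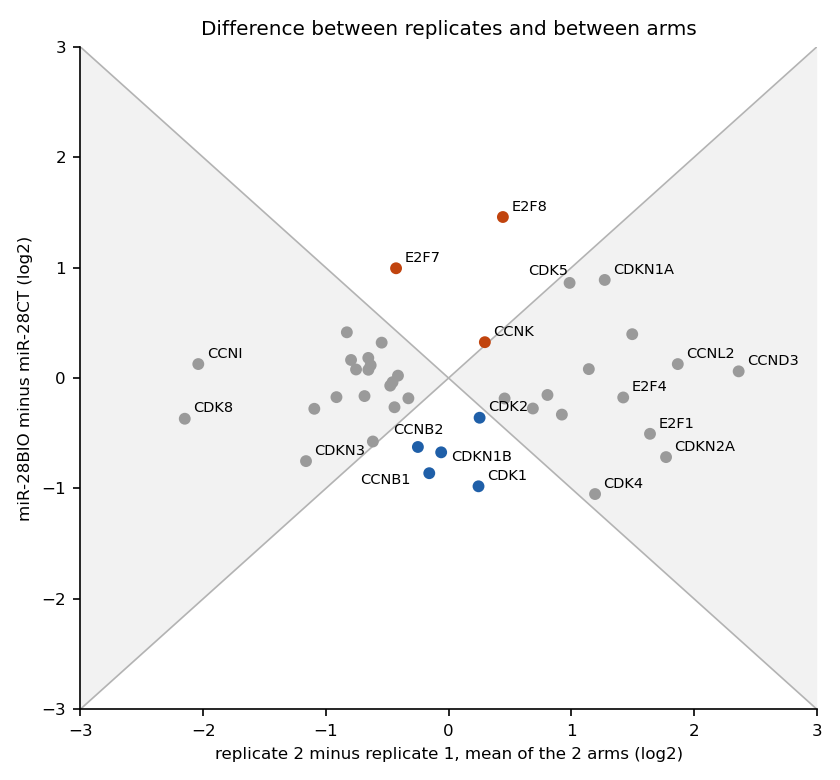
Difference between the arms (vertical, log2) against the difference between replicates averaged over the arms (horizontal, log2) for the 41 genes. In the shaded areas, which hold 33 genes, the replicate difference is the larger; E2F7, E2F8 and CCNK (orange) and CCNB1, CCNB2, CDK1, CDK2 and CDKN1B (blue) lie outside them.

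Transcript length moved with the difference between the arms. Over all genes, the median log2 fold change was -0.76 where the leading transcript had up to 1000 bases, -0.40 from 1000 to 2000, -0.16 from 2000 to 3000, -0.02 from 3000 to 4000, 0.08 from 4000 to 6000 and 0.23 above 6000 bases. Genes with both miR-28BIO values above were 4.32% of the shortest class and 25.1% of the longest, and those with both below went from 21.9% to 3.47%. Across genes, the correlation of log2 length and log2 fold change was r = 0.24 and rho = 0.40 over 11309 genes, and r = 0.30 and rho = 0.33 over the 41; the genes share the same 4 libraries and are not independent. The 5 genes on the lower side had leading transcripts of 1549 (CCNB2), 1913 (CDK1), 2167 (CCNB1), 2301 (CDK2) and 2522 bases (CDKN1B). On the upper side, CCNK had 2606, E2F8 3721 and E2F7 5741 bases.

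Values are also given against genes of like length (within 1.25-fold). The median of such genes was -0.27 for CDK1, -0.21 for CCNB1 and -0.15 for CDKN1B, whose own values were -0.98, -0.86 and -0.67. For CCNB2 the median was -0.38 beside its own -0.62, and for CDK2 it was -0.18 beside -0.36. It was 0.00 for E2F8, 0.14 for E2F7 and -0.14 for CCNK, beside 1.46, 0.99 and 0.32. Of the genes of like length, 8.74% lay below CDK1, 9.98% below CCNB1, 12.5% below CDKN1B, 33.6% below CCNB2 and 36.1% below CDK2, and 96.9% lay below E2F8, 93.1% below E2F7 and 78.8% below CCNK. These are descriptions, and the part of length in the differences was not tested.

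**Figure D4:**
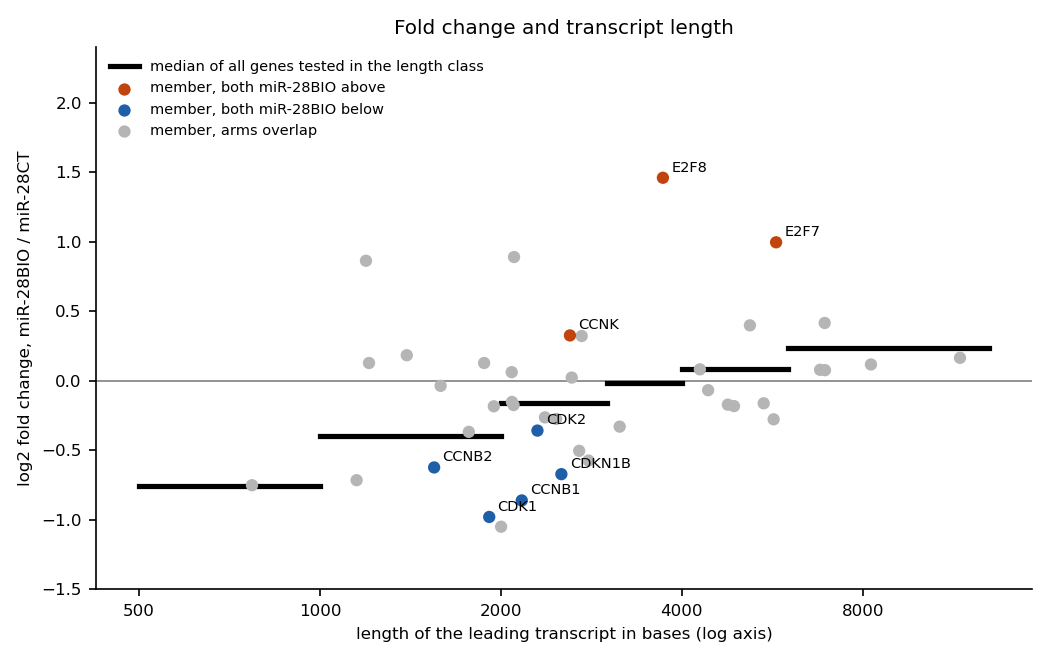
Log2 fold change of miR-28BIO over miR-28CT against the length of the leading transcript in bases (log axis) for the 41 genes, with black bars for the median of all genes tested in each length class. The bars climb from -0.76 in the shortest class to 0.23 in the longest; CDK1, CCNB1 and CDKN1B lie under the bar of their class and E2F7 and E2F8 above it.

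Single transcripts varied more than gene sums. Of the 79 transcripts, 63 passed the filter on their own, 13 were listed at 0 in all 4 libraries, and 20 genes had several transcripts above 0. No transcript of these genes was called by limma's adjusted test over 15587 transcripts (background 0.0% in each direction), and 1 of the 63 (1.59%) had an unadjusted p under 0.05, beside 3.57% of all transcripts. That one belonged to CDK5, where the transcripts went opposite ways: NM_001164410 had 2.97 and 2.74 in miR-28CT and was listed at 0 in both miR-28BIO libraries, while NM_004935 had 1.20 and 4.55 in miR-28CT and 6.68 and 15.3 in miR-28BIO. In limma the first had unadjusted p = 0.0122 and adjusted p = 1.00. As both miR-28BIO values of this transcript are listed at 0, no fold is given for it.

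CDK1 and CDKN1A were the other genes with transcripts that differed by at least 1 on the log2 scale in opposite directions. The main CDK1 transcript, NM_001786, held all of the gene's signal in 3 libraries and 18.1 of 23.1 in miR-28BIO replicate 1, where NM_001170407 took the other 5.03. For CDKN1A, NM_078467 had 1.00 and 3.75 in miR-28CT and 1.04 and 0 in miR-28BIO, NM_001220778 was above 0 in miR-28BIO replicate 1 alone with 3.20, and NM_001220777 rested on 18.8 in miR-28BIO replicate 2 against 1.80 to 4.15 elsewhere. These transcripts changed places between libraries of 1 arm.

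The same held for CDK2 and CDKN3. NM_001290230 of CDK2 had 8.77 and 6.97 in miR-28CT and 3.46 and 0 in miR-28BIO, while the other CDK2 transcripts took up the difference in part, so that the gene sum differed far less. NM_005192 of CDKN3 had 9.20 and 6.48 against 0 and 9.84. In E2F8 both transcripts leaned the same way: NM_024680 had 0 and 0.866 in miR-28CT and 1.95 and 2.68 in miR-28BIO, and NM_001256372 had 1.14 and 0.795 against 1.52 and 1.86. Of the CDKN2A transcripts, the one for ARF, NM_058195, had 58.2 and 109.2 against 15.1 and 105.3, and the one for INK4a, NM_000077, had 0 and 29.6 against 6.96 and 15.7, so that ARF made up most of the signal in each library. Whether reads were counted by strand is not given in the sources used here, so that reads of antisense RNA at this locus cannot be told apart. In CCNB1, CCNK, CCNI, E2F4 and RB1, each with 1 transcript, the deposited FPKM lay outside its own Cufflinks interval in all 4 libraries, which leaves the error of those estimates unclear. The same was true of 37 of the 252 values of transcripts that passed the filter. Among genes whose arms did not overlap, CCNB2, CDKN1B and E2F7 had 2 such values each.

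**Figure D5:**
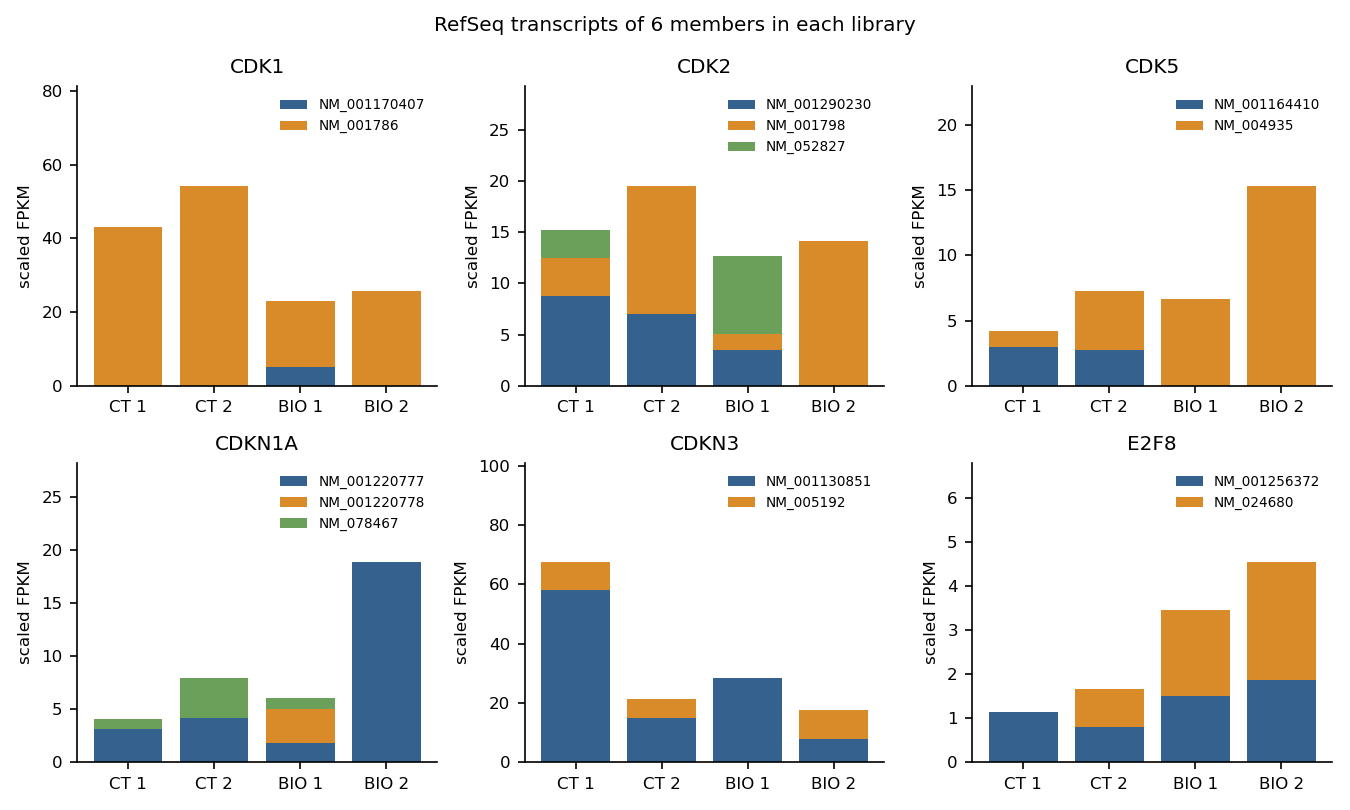
Scaled FPKM of the transcripts that passed the filter, stacked per library, for CDK1, CDK2, CDK5, CDKN1A, CDKN3 and E2F8 (CT, miR-28CT; BIO, miR-28BIO). The total height of E2F8 is larger in both BIO bars than in both CT bars, whereas in CDK2, CDKN1A and CDKN3 the make-up changes between libraries of 1 arm.

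The promoters of these genes are known for short words that tie them to the cycle. The CHR word TTTGAA is read by the complex that RB relatives form with E2F4, and the E2F words TTTCCCGC, TTTCGCGC, TTTGCCGC and TTTGGCGC by E2F factors. Both were searched on both strands from 250 bases before to 50 after the start of each gene in RefSeq's GRCh38.p14 promoters, which 37 of the 41 genes had; the words of one kind do not contain those of the other. The search was added after the expression values were seen. CHR was in 6 of the 37 promoters (16.2%), beside 9.39% of 9021 tested genes, and an E2F word in 5 (13.5%), beside 5.71%. CDK1 and E2F3 had both, as did 0.599% of the tested genes. CHR was also in CCNB2, CDKN3, CCNF and RBL2. Of the genes with CHR, the arms overlapped in CDKN3, CCNF, RBL2 and E2F3, with log2 fold changes of -0.75, 0.08, -0.18 and -0.07. The windows of 30 bases below run along the gene's strand, with the match in capitals, and are shown for CCNB2 and CDK1, which lay on the lower side, for CDKN3, whose match is on the opposite strand, and for E2F1 and RBL1 as examples of the E2F word within the network itself.
CCNB2, chr15:59105105-59105134, plus strand: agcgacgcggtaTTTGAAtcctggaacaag
CDK1, chr10:60778158-60778187, plus strand: gagtataataaaTTTGAActgtgccaatgc
CDKN3, chr14:54396825-54396854, plus strand: tcccgcgcgtctTTCAAAggtcttctagga
E2F1, chr20:33686387-33686416, minus strand: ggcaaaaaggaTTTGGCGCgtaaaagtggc
RBL1, chr20:37096005-37096034, minus strand: cagctgcagatTTTCGCGCgctttggcgca

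Counted from the annotated start of the gene, the match begins at -29 in CCNB2, -161 in CDK1 and -170 in CDKN3, and the E2F words in capitals for E2F1 and RBL1 begin at -20 and -26. The RBL1 window also holds a further E2F word, TTTGGCGC from -16, which is left in lower case. Of the 8 genes with separated arms, CCNB1, CDKN1B, CCNK and E2F7 held neither word in this window, and CDK2 and E2F8 are among the 4 genes that were not searched. A match is a description of the letters, and the pull out measures RNA on beads and not the activity of promoters.

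A list of 58 further genes of the cycle and of CDK function gave the surroundings of the network: regulators of CDKs, the MCM helicase, mitotic kinases, partners of RB and E2F, and further cyclins and CDKs. Of the 57 that passed the filter, limma called 0, and 2 (3.51%) had an unadjusted p under 0.05, beside 3.02% of all genes. In 7 both miR-28BIO values lay above (12.3%) and in 10 below (17.5%), beside 12.3% and 12.7% of all genes, and the median log2 fold change was -0.16. On the lower side were CDC25C, MCM7, PCNA, TYMS, PLK1, MAD2L1, CKS2, TFDP1, LIN52 and CDK14, and on the upper side SKP2, E2F6, FOXM1, CCNY, CDK18, CDK19 and MED13. CDKN1C was listed at 0 throughout. RRM2, a subunit of the enzyme that makes deoxyribonucleotides and is needed in S phase, was listed at 0 in 3 libraries and at 2.59 in miR-28BIO replicate 2. Whether a listed 0 means that the RNA was absent was not tested for these genes.

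The arms of 2 of these genes were apart by at least 2-fold. E2F6, a repressor of the same family that acts with Polycomb proteins and without RB, had 2.24 and 1.74 in miR-28CT and 21.9 and 38.5 in miR-28BIO. Its fold difference was 14.0 (log2 fold change 3.81, standard error 0.50), with unadjusted p = 0.00143 and adjusted p = 0.444 in limma. Of its transcripts above the filter, the arms lay apart only in the non-coding form NR_103490, which had 1.96 and 1.45 against 13.2 and 25.5. NM_001278276 was above 0 in miR-28BIO replicate 1 alone with 8.67, and NM_001278277 had 0 and 0.290 against 0 and 13.0. Neither of these coding forms was above 0 in both miR-28BIO libraries. MAD2L1, a protein of the spindle checkpoint, had 9.87 and 11.6 in miR-28CT and 3.04 and 4.90 in miR-28BIO, a log2 fold change of -1.44 with unadjusted p = 0.0331 and adjusted p = 1.00 in limma. Over the family of E2F genes measured here, both miR-28BIO libraries thus exceeded both miR-28CT libraries in E2F6, E2F7 and E2F8, and the arms overlapped in E2F1, E2F2, E2F3, E2F4 and E2F5. Arms lay apart in this direction in 12.3% of all genes, and E2F6 was looked at with its values known. Whether the members of the family differ from each other was not tested.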

How the data were processed

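RNA recovered by the miR-28-5p pull out was measured in 4 libraries, grouped by the arm and replicate number in the labels. Per the labels, single reads of 50 bases were sequenced from stranded total RNA libraries, and nothing says that replicates share a day or batch, so that p-values measure the spread between these libraries. The authors aligned reads to hg38 with TopHat2 and estimated FPKM with Cufflinks on the Galaxy platform, and for each library they deposited the FPKM of 53209 RefSeq transcript entries with an interval, a status and the coverage. The submitters' processing notes name FastQC 0.10.1, cutadapt, TopHat2 2.0.9, Cufflinks 2.1.1 and Cuffdiff. The deposited coverage, a mean read depth per transcript, served only to estimate the reads behind the values. Whole reads could not be recovered from FPKM, so that count tests were not used.

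Entries without status OK in every library were dropped, which left 52530, and libraries were scaled by the median of ratios over the 11650 entries above 0 throughout. Values were summed per gene symbol of the RefSeq table of GRCh38.p14, which named 98.4% of the 15587 tested transcripts. Genes and transcripts whose scaled FPKM averaged 0.5 or more entered limma (lmFit and eBayes with a trend, no block) as log2(scaled FPKM + 0.1). Benjamini-Hochberg adjustment ran over all of them, with 0.05 as the threshold. Fold changes are on this scale, which understates those of low genes.

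The 42 genes, the list of 58 further genes and the markers were chosen with earlier results of these data known. Values in every library are given for genes whose arms did not overlap, those with an absolute log2 fold change of at least 1, those that failed the filter and the highest of each role, and of the further genes for those apart by 2-fold and E2F6. Other values were added after they were seen. Transcripts were named where 2 of a gene moved at least 1 in opposite directions, or among the 5 with the largest fold changes. The transcripts of CDKN2A, the other transcript of E2F8 and RRM2 were chosen after their values were seen. Scripts were tested on simulated data. Alternatives covered pseudocounts, filters, scalings, the status, the trend, the replicate block, the highest transcript alone, 2-fold separation and each library left out. The tools were R 4.3.3 with limma 3.58.1, and Python 3.11.15 with numpy 2.4.6, pandas 2.3.3 and matplotlib 3.10.9.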

Additional observations from a re-analysis of the deposited data

How the results depend on the processing

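The count of all genes lower in miR-28BIO at an adjusted p under 0.05, 3, was 0 with a pseudocount of 1, without the filter on low values and without a trend, where limma gave 89, 151 and 89 at an unadjusted p under 0.05. It was 0 without each library in turn (62 to 133 unadjusted). Fewer samples enter those fits, and the lone library of an arm is taken to vary like the others. The replicate block gave 42 genes higher and 22 lower. Same-numbered libraries deviated from their arm means together (r = 0.62 and rho = 0.83 across 11309 genes), and replicate 2 lay above replicate 1 in both arms in 18 and below in both in 22 of the 41 genes. With 2 pairs these numbers are a hint from the data and not the design. No gene of the network was called with the block, where 11 of them (26.8%) had an unadjusted p under 0.05, beside 25.8% of all genes, and the lowest adjusted p among them was 0.0694, and none under any other setting for which calls were counted, which leaves out the highest transcript alone.

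The counts of genes with separated arms, 3 above and 5 below, were 1 and 0 when a distance of at least 2-fold was asked. Without each library in turn they ranged from 8 to 14 above (19.5% to 34.1%, beside 24.9% to 32.1% of all genes) and from 12 to 16 below (29.3% to 39.0%, beside 28.6% to 38.8%). The median log2 fold change of the 41 genes, -0.15, was 0.14 without miR-28CT replicate 1 and -0.19 to -0.15 without each of the other libraries; it went from -0.41 to 0.04 over the 4 pairs of libraries, with an SD of 0.20. The cause of these shifts was not tested. Directions of CCNB1, CCNB2, CCNK, CDK1, CDK2, CDK4, CDKN1B, E2F6, E2F7 and E2F8 held under every alternative run, without any passing the threshold. Matches to the miR-28-5p seed were not analysed here. The reads behind a gene are unknown, and no detection limit was calculated.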
